A study of Homo sapiens with 4 samples.

Results

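MHC class I molecules show peptides from inside the cell to CD8 T cells. Each is a heavy chain, encoded by HLA-B, HLA-C or HLA-E among others, held together with the small invariant chain beta-2 microglobulin (B2M). Peptides are cut by the proteasome, in which the interferon-inducible subunits PSMB8 and PSMB9 can replace constitutive catalytic subunits, and are pumped into the endoplasmic reticulum by the transporter TAP1-TAP2, where tapasin (TAPBP) bridges the transporter to empty heavy chains. The genes of the heavy chains, TAP1, TAP2, TAPBP, PSMB8 and PSMB9 lie in the major histocompatibility complex (MHC) on chromosome 6, and B2M lies on chromosome 15. Tumours can lower class I presentation through any of these steps.

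These 9 genes (HLA-B, HLA-C, HLA-E, B2M, TAP1, TAP2, TAPBP, PSMB8 and PSMB9) were listed by symbol and each was found once among the 60880 genes of the count table. RNA-Seq counts were compared between LNCaP95, androgen-independent cells derived from the human prostate cancer line LNCaP, with wild-type UGT2B17 (replicates 1 and 2), and LN95(KO), the same line with UGT2B17 targeted by CRISPR (replicates 3 and 4). The cells of all 4 libraries grew in medium with charcoal-stripped serum and were not treated before RNA was taken. The sample labels name LN95 as the parent of the knockout, while the series text names LNCaP. How many clones LN95(KO) stands for is not stated, and nothing says whether the libraries of a group came from separate cultures, so p-values measure only the spread between these libraries. Gene reads numbered 17330338 to 18813193 per library. The target gene followed its labels, with 2788 and 2748 reads of UGT2B17 in LNCaP95 and 21 and 20 in LN95(KO).

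B2M was the member with a usable count, and it was higher in LN95(KO). It had 4427 and 4160 reads in LNCaP95 and 8448 and 8673 in LN95(KO). Each LN95(KO) library was above each LNCaP95 library, but the groups were without overlap for 79.8% of all tested genes too. As CPM (reads of a gene per 1e6 gene reads, scaled library size), B2M stood at 233 ± 9.0 in LNCaP95 and 476 ± 1.45 in LN95(KO) (SD, n = 2 libraries each). On the log2 scale that is a change of 1.03, SE 0.05 (edgeR quasi-likelihood, Benjamini-Hochberg adjusted p 6.27e-12), a ratio of 2.04 with a 95% interval of 1.91 to 2.18. The SE of each edgeR value was worked back from the F statistic of its test. The interval assumes a normal spread, so with 2 libraries per group it may be too narrow. A gene was called when its adjusted p was under 0.05 and its change was over 2-fold, the thresholds of the study, and B2M passed. It lay so near the 2-fold line that the call was lost with upper-quartile scaling (log2 fold change 0.99), with a test against a 2-fold change and without LNCaP95 replicate 2 (0.99), while the rise itself had an adjusted p of at most 1.01e-07 under each of 10 alternative fits with edgeR or DESeq2. In bulk RNA, more cells with a transcript and more RNA per cell cannot be told apart.

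The other 8 members, all on chromosome 6, had almost no reads. In GRCh37 they lie at chr6:30457286-30461971 (HLA-E), chr6:31236526-31239907 (HLA-C), chr6:31321649-31334844 (HLA-B), chr6:32789610-32806516 (TAP2), chr6:32808494-32812456 (PSMB8), chr6:32812986-32821593 (TAP1), chr6:32811913-32827628 (PSMB9) and chr6:33267471-33282061 (TAPBP). TAP1, TAP2, PSMB8 and PSMB9 were listed at 0 in all 4 libraries. HLA-E had 2 and 3 reads in LNCaP95 and 1 and 0 in LN95(KO). HLA-C had 9 and 12 against 11 and 7 reads, with overlapping groups. TAPBP had 34 and 6 reads in LNCaP95 and 4 and 15 in LN95(KO), again overlapping. HLA-B had 55 reads in LNCaP95 replicate 1 and 2 in replicate 2, against 4 and 2 in LN95(KO), so nearly all of its reads came from 1 library. Together the 8 genes held 100, 23, 20 and 24 reads in replicates 1 to 4. A count of 0 allows up to 3 reads, or 0.159 to 0.173 per 1e6 gene reads with unscaled library sizes, by counting error only.

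**Figure D1:**
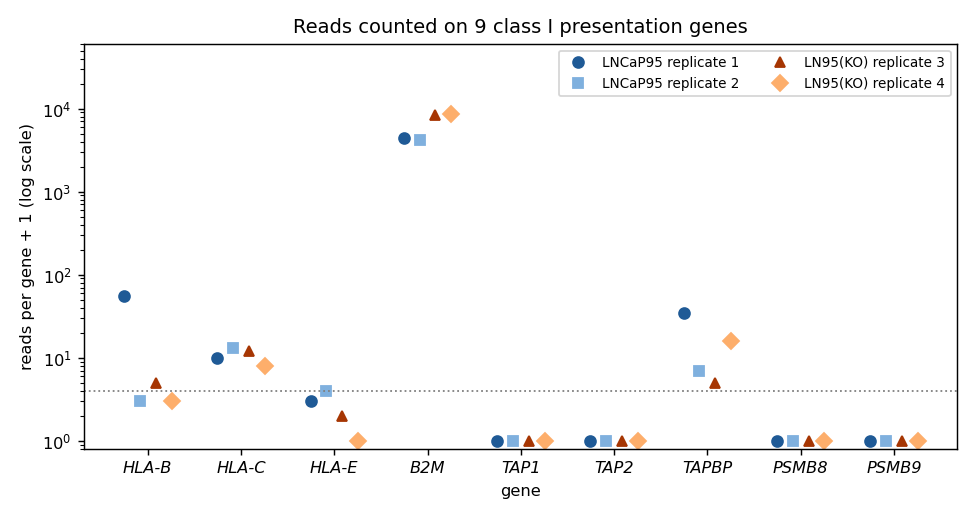
Reads per gene plus 1 (log axis) for the 9 genes in each of the 4 libraries, with a dotted line at 3 reads (drawn at 3 plus 1). B2M has 4160 to 8673 reads, TAP1, TAP2, PSMB8 and PSMB9 sit at 0, and the remaining 4 genes are at 55 reads or fewer.

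Of the 9 members, 3 passed the filter on low counts (B2M, HLA-C and TAPBP) and could be tested. Of these, 1 (B2M) was called higher and 0 were called lower, where 18.0% of the 15626 genes tested were called, 8.86% higher and 9.13% lower, and 59.8% had an adjusted p under 0.05 at any fold (edgeR). HLA-C differed by -0.19 on the log2 scale (SE 0.47, adjusted p 0.75, edgeR) and TAPBP by -1.03 (SE 0.92, adjusted p 0.38, edgeR). Neither value holds a direction. HLA-C turned to 0.04 and 0.12 without LNCaP95 replicate 2 and without LN95(KO) replicate 4, and TAPBP turned to 0.68 without LNCaP95 replicate 1. Without LNCaP95 replicate 2, TAPBP stood at -1.79 (adjusted p 0.00175, edgeR) and would have been called lower, with the lone replicate 1 assumed to vary like the other group. With all 4 libraries HLA-B did not pass the filter and so was not tested. Fitted with no filter, it stood at -3.17 (SE 2.47, adjusted p 0.551, edgeR), and the HLA-B difference rests on 1 library. Paralogous heavy chains can exchange reads, so single counts of HLA-B, HLA-C and HLA-E are uncertain.

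Genes around these 8 members were nearly without reads too, including genes that every cell uses. From the start of GABBR1 to the end of KIFC1 (the MHC interval used here, chr6:29523406-33377673, GRCh37) the table held 156 protein-coding genes. Of these, 102 (65.4%) were listed at 0 in all 4 libraries and 13 (8.33%) passed the filter. Among all other protein-coding genes 17.1% were at 0 and 63.5% passed. In the following stretch of the same length 11.7% were at 0 and 61.7% passed. In the preceding one, which reaches into the low-count interval and holds histone and olfactory receptor clusters, the shares were 36.8% and 40.6%. No protein-coding gene of the MHC interval had 100 reads in every library, whereas 31 of 60 genes in the following stretch did. Walking outward from TAP1, the nearest protein-coding genes with at least 100 reads in every library were ZSCAN12 (200 and 194 against 316 and 334 reads) and BAK1 (401 and 383 against 639 and 716 reads), and the 182 protein-coding genes between them spanned 5.03 Mb.

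Among the genes in that interval, named after their values were seen, were some that dividing cells cannot do without. RPS18, a protein of the small ribosomal subunit, had 732, 1, 0 and 1 reads in replicates 1 to 4, while the 71 other ribosomal protein genes had a median of 8662 reads per library, with a lowest mean of 1.75 and 4 of them below the RPS18 mean of 183.5. TUBB, the major beta-tubulin of dividing cells, had 3, 0, 0 and 1 reads. LSM2 of the RNA splicing machinery and the prefoldin subunit PFDN6 were listed at 0. The 0 counts of TAP1, TAP2, PSMB8 and PSMB9 are therefore given as listed at 0, and not as an absence of their transcripts in LNCaP95 or LN95(KO).

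**Figure D2:**
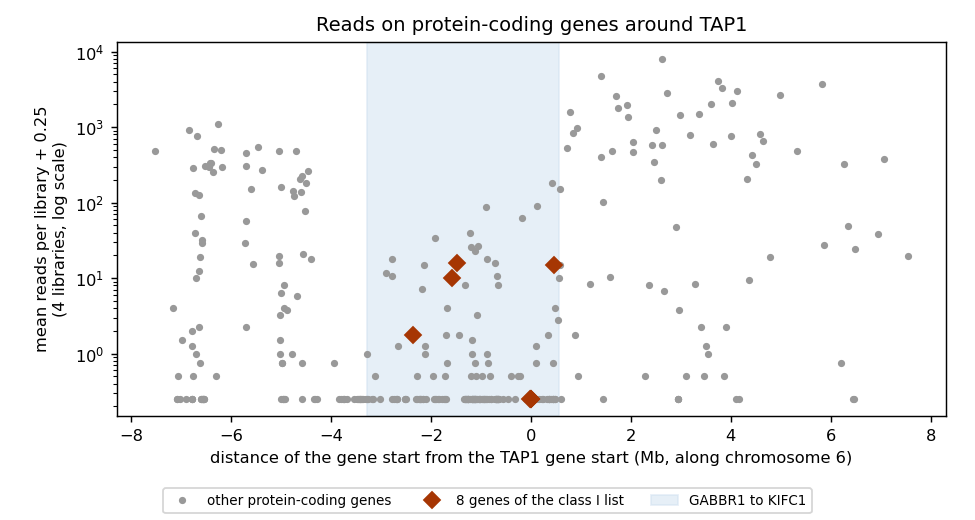
Mean reads per library plus 0.25 (log axis, 4 libraries) of protein-coding genes on chromosome 6 against the distance of each gene start from that of TAP1 in Mb, with the interval from GABBR1 to KIFC1 shaded. The 8 class I genes (diamonds, 4 of them overlapping at 0 reads) sit among neighbours that are at or near 0, while many genes beyond both ends are well above 0.

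Reads in the interval also gathered in single libraries. Of 22 genes of the MHC interval with at least 20 reads in all, 7 (31.8%) had over 80% of them in 1 library, against 4 of 17162 genes elsewhere (0.0233%). HLA-B was among the 7, as were RPS18, ATF6B, VARS1, VARS2, NELFE and DDAH2. The library differed from gene to gene, with ATF6B at 54 of 63 reads in LNCaP95 replicate 1, VARS2 at 127 reads in LN95(KO) replicate 3 and NELFE at 279 in LN95(KO) replicate 4. Of the 13 tested genes of the MHC interval, 1 was called higher and 0 lower, where 8.86% and 9.13% of all tested genes were. It was MDC1, a DNA damage mediator, which went from 3 and 5 to 20 and 30 reads. The immediate neighbours of the 8 members on either side had at most 1 read in any library. Most of these neighbours were pseudogenes, noncoding RNA genes or other members, so their counts add little about the interval. Protein-coding neighbours outside the list were few, RGL2 and ZBTB22 among them.

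The member genes are mostly unique sequence in the primary assembly. Of the 100-base windows within PSMB8 exons, 0 of 3282 occurred a second time in the GRCh37 primary assembly. The count was also 0 for TAP1 (3619 windows), TAP2 (9379), PSMB9 (2808), HLA-B (4114) and B2M (2652), and the share was 0.189% for HLA-C, 0.612% for HLA-E and 0.984% for TAPBP. With windows of 50 bases the highest shares were 11.7% for TAPBP, 7.27% for HLA-C and 6.64% for HLA-E. Reads that align more than once were left out of the counts. Sets of sequences called hg19 may carry further copies of the MHC beside the primary chromosome. Whether the set the authors aligned to did so was not given in the sources used here, and its part in the 0 counts was not tested. In GENCODE release 44, exons of other genes cover 45.3% of the exon bases of HLA-B, 21.0% of TAPBP, 19.5% of TAP2, 17.3% of PSMB8, 14.2% of TAP1 and 5.21% of PSMB9. Counting used release 29 and no strand, and the part of these overlaps in the counts was not tested. For B2M, HLA-C and HLA-E that share was 0.

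B2M (ENSG00000166710) lies at chr15:45003556-45011049 of GRCh37, on the plus strand. The 150 bases before its RefSeq start are shown because B2M is the member whose count differed. They come from the RefSeq promoter table (GRCh38.p14, chr15:44711367-44711516) and match GRCh37 exactly once on chromosome 15, at chr15:45003565-45003714, plus strand, 5′ to 3′. Capitals mark matches to the motifs searched, in order from 5′ the interferon-stimulated response element, kappa B, TGACG and CCAAT.
B2M: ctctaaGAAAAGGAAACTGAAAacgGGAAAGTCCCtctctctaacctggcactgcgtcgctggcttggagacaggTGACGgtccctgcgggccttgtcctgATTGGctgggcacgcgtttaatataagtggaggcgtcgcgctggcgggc
Both strands of the 250 bases before the start were searched. The interferon-stimulated response element, GAAA then any 2 bases then GAAA, occurred 2 times on the plus strand, at bases 144 to 135 and 138 to 129 before the start, and these matches overlap each other. The kappa B motif occurred once on the minus strand, at 125 to 116. TGACG, the core of the cyclic AMP response element, occurred at 75 to 71, and CCAAT on the minus strand at 49 to 45. Among 34788 promoters of this length, 3.02% held the response element, 0.178% the kappa B motif, 21.2% TGACG and 32.0% CCAAT. A match describes the letters and was not tested as a binding site. Of the 9 members, 8 had a promoter entry. Counting B2M, 4 members held the response element, 2 the kappa B motif, 6 TGACG and 5 CCAAT.

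Within 1 Mb on either side of B2M, 23 genes were tested, of which 2 were called higher and 1 lower, where 18.0% of all tested genes were called. TRIM69, the next gene, had 393 and 385 reads in LNCaP95 against 558 and 622 in the knockout (log2 change 0.63), short of a call.

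Heavy chains encoded outside the MHC interval that also pair with B2M were examined next. HFE, which regulates iron uptake and lies on chromosome 6 outside the interval, had 139 and 132 reads in LNCaP95 against 132 and 135 in the knockout (log2 change 0.01, SE 0.14, adjusted p 0.949, edgeR). MR1, which presents vitamin B metabolites, had 523 and 536 against 558 and 596 reads (0.16, SE 0.08, adjusted p 0.085, edgeR). The groups did not overlap for MR1, as for 79.8% of all tested genes. FCGRT, the neonatal Fc receptor, had 2 to 5 reads per library and CD1D, which presents lipids, had at most 1. Per kilobase of exon, B2M stood at 74.8 ± 2.88 CPM in LNCaP95 and 153 ± 0.464 in LN95(KO), MR1 at 3.05 ± 0.0695 and 3.40 ± 0.0847, and HFE at 1.30 ± 0.0404 and 1.31 ± 0.00751 (SD, n = 2 libraries each). That order, B2M above MR1 above HFE, was without overlap in both lines. Inside the interval, the heavy chain genes HLA-F, HLA-G, MICA and MICB had 0 to 5 reads per library.

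Peptide loading and trimming genes lay outside the MHC and could all be tested. Of 13, 9 were higher and 2 lower at an adjusted p under 0.05, where 29.8% and 30.1% of all tested genes were. ERAP2 was called, 1 of the 13, where 18.0% of all tested genes were. The median log2 fold change of the 13 was 0.20, against -0.01 over all tested genes. ERAP2, an endoplasmic reticulum aminopeptidase that trims peptides for class I, had 24 and 29 reads in LNCaP95 against 70 and 71 in the knockout (log2 change 1.44, SE 0.23, adjusted p 3.19e-05, edgeR). Its partner ERAP1 fell, from 684 and 648 to 578 and 489 reads (-0.29, SE 0.09, adjusted p 0.00978, edgeR), short of 2-fold. The lectin chaperone CALR, which holds the heavy chain with B2M in the loading complex, rose from 1196 ± 16.0 to 2002 ± 4.85 CPM (SD over 2 libraries a line), or by 0.74 on the log2 scale. CANX, which acts on the heavy chain before B2M joins, rose by 0.14. PDIA3, the disulfide partner of tapasin, differed by -0.08 (adjusted p 0.16, edgeR). TAPBPL, a tapasin relative that edits peptides outside the loading complex, had 34 and 36 reads in LNCaP95 against 11 and 28 in the knockout (log2 change -0.81, SE 0.34, adjusted p 0.0493, edgeR).

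**Figure D3:**
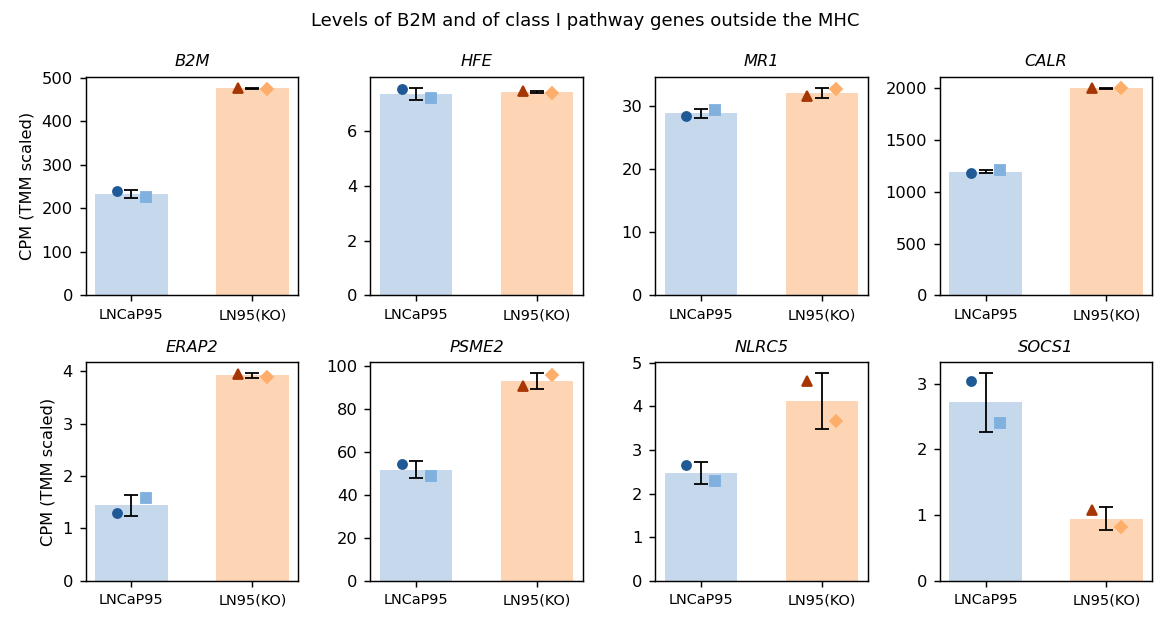
Levels in CPM (TMM-scaled library sizes) of B2M and 7 class I pathway genes outside the MHC interval in LNCaP95 and LN95(KO). Bars are means, error bars SD over 2 libraries and symbols the libraries, each panel with its own axis from 0. B2M, CALR, ERAP2, PSME2 and NLRC5 are higher and SOCS1 lower in both LN95(KO) libraries, while HFE overlaps between the groups. The groups were without overlap for 79.8% of all tested genes. The panels are a selection, and pathway genes not drawn include ERAP1, TAPBPL, PSMB10 and RFXAP, which were lower in both LN95(KO) libraries.

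PSMB10, the third interferon-inducible catalytic subunit, is the immunoproteasome gene that lies outside the MHC. It had 46 and 37 reads in LNCaP95 against 33 and 25 in the knockout (log2 change -0.48, SE 0.26, adjusted p 0.124, edgeR). Exons of another gene cover 39.4% of its exon bases. Per length, PSMB10 stood at 2.53% and 2.25% of PSMB7, the constitutive subunit it replaces, in LNCaP95, and at 1.80% and 1.25% in LN95(KO). PSMB8 and PSMB9 had no ratio to their counterparts PSMB5 and PSMB6, since both were listed at 0. The constitutive subunits rose by small amounts, PSMB5 by 0.24, PSMB6 by 0.28 and PSMB7 by 0.18 on the log2 scale.

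The proteasome activators moved unequally. PSME2, the beta subunit of the interferon-inducible PA28 activator, had 1002 and 893 reads in LNCaP95 against 1598 and 1743 in the knockout (log2 change 0.85, SE 0.06, adjusted p 4.53e-09, edgeR). Its alpha partner PSME1 rose by 0.21. PSME4, the nuclear activator PA200, rose by 0.84, and PSME3 differed by -0.12 (adjusted p 0.0814, edgeR). Over all 20 proteasome genes of the list, 10 were higher and 1 lower at an adjusted p under 0.05, where 29.8% and 30.1% of all tested genes were. None passed the 2-fold criterion as well (0 called, where 18.0% of all tested genes were), and the median was 0.14.

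Regulators of class I transcription were mixed. Of 29 in the table, 26 were tested, with 6 higher and 11 lower at an adjusted p under 0.05, where 29.8% and 30.1% of all tested genes were, and a median of -0.04. Of the 26, 1 was called, where 18.0% of all tested genes were. It was SOCS1, an inhibitor of JAK kinases downstream of interferon receptors. SOCS1 fell from 56 and 44 reads in LNCaP95 to 19 and 15 in LN95(KO), a log2 change of -1.52 (SE 0.28, adjusted p 0.000171, edgeR). NLRC5, the transactivator of class I genes, had 49 and 42 reads in LNCaP95 and 81 and 67 in LN95(KO) (0.73, SE 0.21, adjusted p 0.0058, edgeR). RFX5 rose by 0.47 and RFXAP fell by 0.92, and both are subunits of the same X box binding complex. IRF1, a factor that carries the interferon signal to class I genes, differed by -0.12 (adjusted p 0.685, edgeR) and did not pass. The interferon gamma receptor genes IFNGR1 and IFNGR2 fell by 0.33 and 0.43, and JAK1 and JAK2 both fell by 0.61. Of the type I interferon receptor genes, IFNAR1 rose by 0.57 and IFNAR2 stood at 1.02 (adjusted p 0.0788, edgeR).

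Of 30 interferon-induced genes outside presentation, 17 were tested, 6 were called higher and 0 lower, with a median log2 fold change of 0.79, where 8.86% and 9.13% of all tested genes were called. At an adjusted p under 0.05 and any fold, 10 were higher and 2 lower, where 29.8% and 30.1% of all tested genes were. Those lower were IFI35 (-0.51) and ISG20 (-0.59). IFITM3, which blocks virus entry, had 1302 and 1283 reads in LNCaP95 against 3010 and 3589 in the knockout (log2 change 1.38). The guanylate-binding proteins GBP1 and GBP2, which act against intracellular pathogens, rose by 3.06 and 1.81. IFI44 had 0 reads in both LNCaP95 libraries, against 29 and 24 reads in the knockout, and was at least 9.05-fold higher against 3 counts per library. ISG15, a ubiquitin-like modifier, had 1080 and 1051 against 1015 and 1086 reads. Its groups overlapped. The other genes called in the list were OAS3 and IFIT3, both part of the antiviral response.

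**Figure D4:**
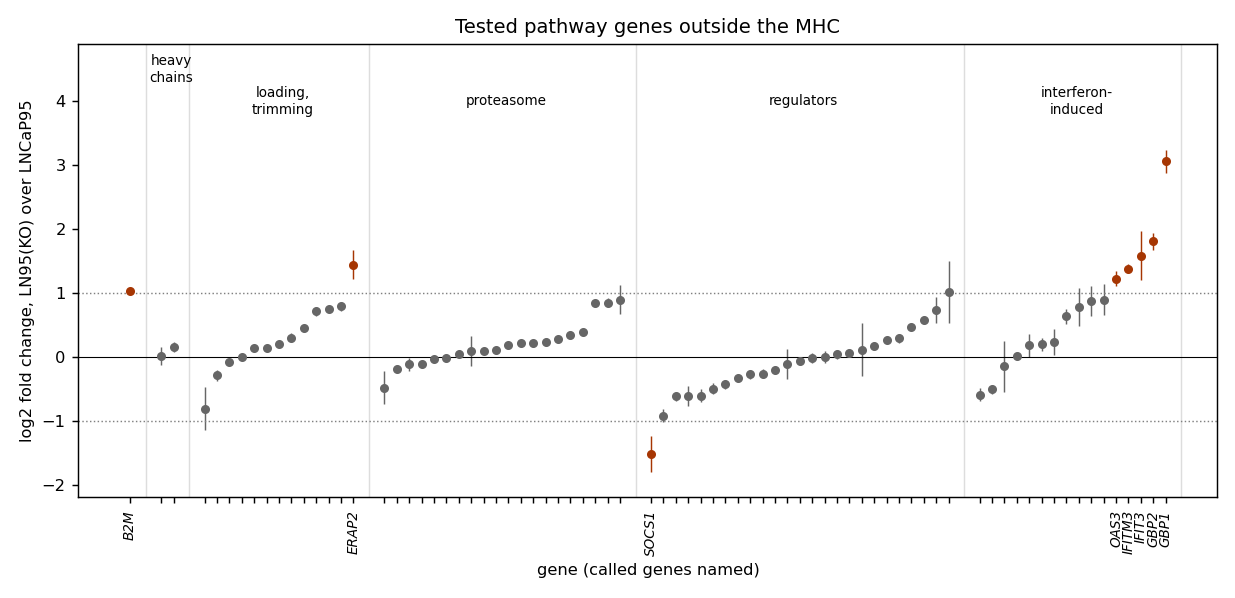
Log2 fold changes with standard errors of the tested pathway genes outside the MHC interval, ordered within each list, with called genes in red and named, and dotted lines at a 2-fold change. IFI44, without reads in LNCaP95, is not drawn. B2M, ERAP2 and 5 interferon-induced genes are the called rises and SOCS1 is the called fall.

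MHC class II genes, which antigen-presenting cells use, gave little. Of 13, 10 lie inside the interval, and CD74, the class II invariant chain on chromosome 5, had 0 to 4 reads per library. HLA-DQB1, inside the interval, was the class II gene that could be tested. It had 84 and 68 reads in LNCaP95 against 49 and 50 in the knockout (log2 change -0.58, SE 0.20, adjusted p 0.0182, edgeR). Most protein-coding genes of the interval were listed at 0, so this value is uncertain too. In all, 80 genes of the 6 wider lists were tested and 8 (10.0%) were called, 7 higher and 1 lower, where 18.0% of all tested genes were called, 8.86% higher and 9.13% lower. With no filter 10 were called, 7 higher and 3 lower. With heavy chains summed 9 were called, 7 higher and 2 lower. The count called higher rose without LNCaP95 replicate 1 and without LN95(KO) replicate 4. The count called lower rose without LNCaP95 replicate 2 and without LN95(KO) replicate 4.

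The label of prostate cancer cells was checked against markers. All 10 luminal prostate genes had reads, summing to 4749 to 4788 CPM in LNCaP95 and 4361 to 4580 in LN95(KO). Of 12 leukocyte markers 5 were at 0 in every library, CD3E among them, and the pan-leukocyte gene PTPRC had 1 read in all. Their sum was 16.2 to 17.0 CPM in LNCaP95 and 49.3 to 53.0 in LN95(KO), nearly all from LCP1, an actin-bundling protein also made by carcinoma cells (302 and 291 against 922 and 884 reads). Fibroblast markers summed to 31.2 to 32.3 and 35.0 to 38.2 CPM, and endothelial markers to 0.433 to 0.491 and 2.77 to 3.18, the latter with 3 of 4 markers found and CDH5 at 0. Most of the fibroblast sum was COL1A1, with means of 28.4 CPM in LNCaP95 and 33.0 in LN95(KO). Within that list LUM had 24 and 19 reads in LNCaP95 against 0 and 0 in LN95(KO), while PDGFRB rose by 1.17 on the log2 scale. The endothelial sum was nearly all VWF, with 8 and 8 against 49 and 58 reads. The part of these marker genes in the B2M difference was not tested.

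Finally, genes with a profile like that of the members were sought among 9479 tested genes with a mean of at least 10 CPM that were in no list. By distance of centred log2 CPM over the 4 libraries, the nearest to the mean of the 9 members were FBXW9, MRPS31 and CD58, at distances of 0.0755, 0.0836 and 0.0981. That mean joins the B2M rise with the few reads of HLA-B, HLA-C, HLA-E and TAPBP. Nearest to B2M itself, a comparison chosen after its values were seen, were ESRP2, LDHD and TMEM164, with log2 fold changes of 1.04, 1.06 and 1.02. With 4 libraries such likeness reflects little more than a similar fold change.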

How the data were processed

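RNA-Seq was made from 2 LNCaP95 and 2 LN95(KO) libraries. According to the submitters' processing notes, the authors used hg19 as genome, aligned with HISAT2 2.1.0 and counted them per gene of GENCODE release 29 with HTSeq, without strand, and deposited raw counts. HTSeq leaves out reads that align more than once or to overlapping genes, which lowers counts of paralogs and overlapping genes. The 5 summary lines were left out of library sizes. Symbols and coordinates came from GENCODE release 44 mapped to GRCh37, which matched 59858 of 60880 genes. Counts were tested with edgeR 4.0.16 in R 4.3.3 (quasi-likelihood, robust, TMM scaling, filterByExpr with a minimum count of 10 and total of 15), and p-values were Benjamini-Hochberg adjusted over all 15626 genes tested. CPM used TMM-scaled library sizes. A permutation test of 2 against 2 libraries cannot go below 0.333 (two-sided) and was not run. Alternatives were RLE, upper-quartile or no scaling factors, no filter, DESeq2 1.42.0, a test against a 2-fold change, no fold criterion, leaving out each library, summed heavy chains and transcript length.

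The members and gene lists were chosen with earlier results of these data known. Named genes were the members, a set list of pathway genes, up to 4 called genes of each list, tested neighbours and the 3 genes nearest in profile; others were chosen after their values were seen. Some genes of these lists are counted in the totals but neither named nor drawn, and are not reported here, nor is the value of the summed heavy chains, which includes them. Floors (3 counts) and intervals of counts cover counting error only.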

Additional observations from a re-analysis of the deposited data

Results flagged for a closer look

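Reads that did not enter the gene counts differed between the lines. The share of reads not aligned was 3.85% and 3.96% in LNCaP95, against 8.05% and 7.71% for LN95(KO), so the lowest LN95(KO) library (7.71%) was above the highest LNCaP95 library. Among aligned entries, the share aligned more than once was 3.94% and 3.96% in LNCaP95, against 4.12% and 4.19% for LN95(KO), with the lowest LN95(KO) library at 4.12%. Reads of these kinds are not in the counts of B2M or of the chromosome 6 members, and their part in those counts was not tested.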

How the results depend on the processing

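The B2M log2 fold change ranged from 0.99 to 1.08 over 10 alternatives and was called in 8 of them. It was 0.99 with upper-quartile factors, and 0.99 to 1.07 when a library was left out, with the low value without LNCaP95 replicate 2. HLA-C ranged from -0.56 to 0.12 when a library was left out, and TAPBP from -2.23 to 0.68, reversed without LNCaP95 replicate 1 and called lower without LNCaP95 replicate 2. HLA-C was 0.04 without LNCaP95 replicate 2 and 0.12 without LN95(KO) replicate 4. The number of members called was 0 with upper-quartile factors, 0 with a test against a 2-fold change, and 1 to 2 when a library was left out, both of the 2 being lower and without B2M. Over all genes, 2811 were called, against 1687 with a test against a 2-fold change, 9349 with no fold criterion and 2539 to 2777 when a library was left out. B2M per kilobase was 100.3 CPM in LNCaP95 and 204 in LN95(KO) by the longest transcript. UGT2B17 stayed called in all 10 alternatives. No paired analysis was possible because LNCaP95 carries replicate numbers 1 and 2 and LN95(KO) 3 and 4. The chromosome 6 members had 0 to 55 reads per library, so counting error limits the precision of each of their values. Where a library was left out, the lone library of that group was assumed to vary like the other group.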

Other observations

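Outside the MHC, YTHDC1, a reader of methylated RNA that lies on chromosome 4 (chr4:69176105-69215808, GRCh37), was also listed at 0 in all 4 libraries. It was chosen after its values were seen.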
